A study of Mus musculus with 32 samples.

Results

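The comparison described here sets the whole brain of wild-type (WT) mouse embryos at E16.5 against the whole brain of WT embryos at E14.5, where E stands for the embryonic day. It uses 8 of the 32 RNA libraries of the series, 4 a stage, chosen by their labels alone, and the 17674 genes that passed a filter on low counts were tested, 11178 of them with a mean of 10 CPM (counts-per-million) or more in at least 1 stage. All animals were of strain C57BL/6J and the WT animals carried both working copies of Dhcr7 (Dhcr7+/+), the gene of the last enzyme of cholesterol synthesis. The series also holds Dhcr7-/- (KO) brains, which model the human disorder Smith-Lemli-Opitz syndrome, and both genotypes at E12.5 and on the day of birth (PND0), with 4 libraries a group. The 8 KO libraries of E14.5 and E16.5 served as a separate look at the same interval, and the WT libraries of E12.5 and PND0 are given only as values beside it. The labels name no litter, sex, date, treatment or pooling, and nothing says that the 4 brains of a group came from separate litters, so that p-values measure the spread between these samples.

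In the mouse forebrain these days lie within the period of neurogenesis. Radial glia, the stem cells that line the ventricles, divide and give rise directly or through intermediate progenitors to neurons, first of the deep and then of the upper cortical layers. Later the same lineage turns to making astrocytes and oligodendrocyte precursors, while the new neurons grow axons, synapses and the receptors that synapses need. Blood vessels, meninges, choroid plexus and the microglia that entered from the yolk sac mature beside them.

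Polyadenylated RNA was sequenced, and the counts per gene summed to between 21896526 and 28318857 in the E14.5 libraries and between 14895721 and 16577075 in the E16.5 libraries. Levels are given in CPM, scaled with the TMM factors of edgeR over the 16 WT libraries, and a log2 fold change is E16.5 over E14.5 from edgeR's quasi-likelihood test with Benjamini-Hochberg adjustment. A gene was called changed at an adjusted p under 0.05, and each group held 4 libraries throughout. A value with an SE in brackets is a log2 fold change with its standard error. CPM is not corrected for gene length, so that values were compared between stages and not between genes. The spread between replicate libraries of a group corresponded to a biological coefficient of variation of 10.1%. Counts of the Y gene Ddx3y and of Xist fitted 3 male and 1 female WT brains at E14.5 and 2 of each at E16.5. In KO they fitted 3 male and 1 female brains at E14.5 and 1 male and 3 female at E16.5. Sex and stage were thus unbalanced in KO, and a sex covariate was fitted for the WT comparison alone.

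WT E16.5 replicate 1 stood apart from the other libraries in a set of regional genes. Summed over 10 genes of midbrain and hindbrain, a set chosen after the data were seen, its level was 14.2 CPM, against 265, 175 and 178 CPM in the other E16.5 libraries and 388 to 423 CPM at E14.5. En2, a patterning gene of midbrain and cerebellum, was at 57.7, 52.2, 58.9 and 58.2 CPM at E14.5 and 0.848, 38.4, 15.8 and 14.47 CPM at E16.5. Longer regional lists differed less: the summed level of replicate 1 was 371 CPM for the cerebellum list, against 533 to 667 CPM in the other E16.5 libraries, and 51.9 CPM for monoamine neurons, against 81.3 to 133 CPM. For the hindbrain and spinal cord list it was 1.305 CPM, between replicates 3 and 4 (0.845 and 1.16 CPM) and replicate 2 (14.7 CPM), so that this list does not set replicate 1 apart. Summed over 6 telencephalon genes, chosen in the same way, the E16.5 libraries had 1102, 612, 1078 and 901 CPM, and those of E14.5 had 740 to 781 CPM, so that replicate 2 was the lowest of all 8. The same replicate 1 had 3.75% of its counts on 1 ribosomal RNA gene, against 0.356 to 0.626% in the other E16.5 libraries and 1.04 to 1.17% at E14.5. Results that rest on this library are given with and without it.

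**Figure D1:**
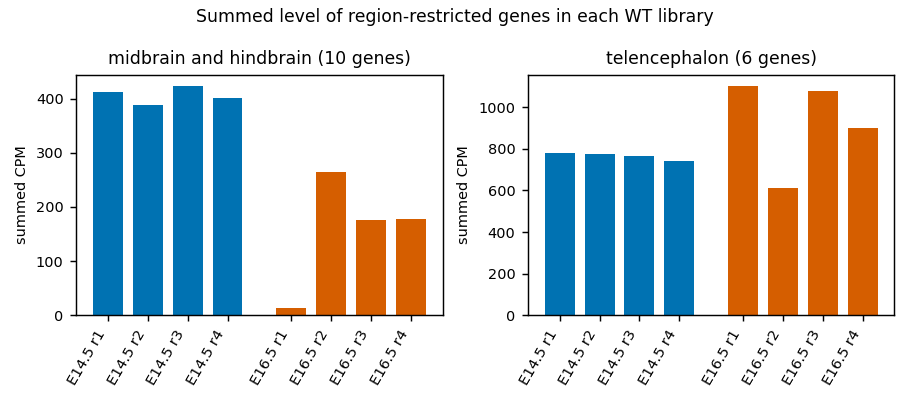
Summed CPM of 10 midbrain and hindbrain genes (left) and 6 telencephalon genes (right) in each of the 8 WT libraries, with E14.5 in blue, E16.5 in orange and r1 to r4 for replicates 1 to 4. E16.5 replicate 1 has 14.2 CPM of the midbrain and hindbrain genes, and the other 7 libraries have 175 CPM or more.

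The test covered 17674 genes, of which 5182 were called higher (29.3%) and 4980 lower (28.2%) at E16.5, 57.5% in either direction. Among the 11178 genes with a mean of 10 CPM or more in at least 1 stage, 3546 rose (31.7%) and 4029 fell (36%), so that 67.8% of well expressed genes changed in one direction or the other. Most of these changes were small, since 409 genes (3.66%) rose and 299 (2.67%) fell by 2-fold or more. Every E16.5 library lay above every E14.5 library in 3216 of the well expressed genes (28.8%) and below in 3948 (35.3%). Without E16.5 replicate 1 the counts were 3413 higher and 4195 lower, with 383 and 282 of them past 2-fold. Against a fold of 1.5 instead of no change, 2293 of the 17674 genes passed.

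The genes were read in 49 lists of cell types, regions and pathways, 749 distinct genes in the tables, whose members are given by how many of those tested rose or fell. These counts are to be read against the 29.3% higher and 28.2% lower among all genes tested, whose median log2 fold change was 0.0080. In bulk RNA, fewer cells of a type and less RNA per cell cannot be told apart. Stage and the deposited table, which holds the libraries of 1 stage, cannot be told apart either.

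**Figure D2:**
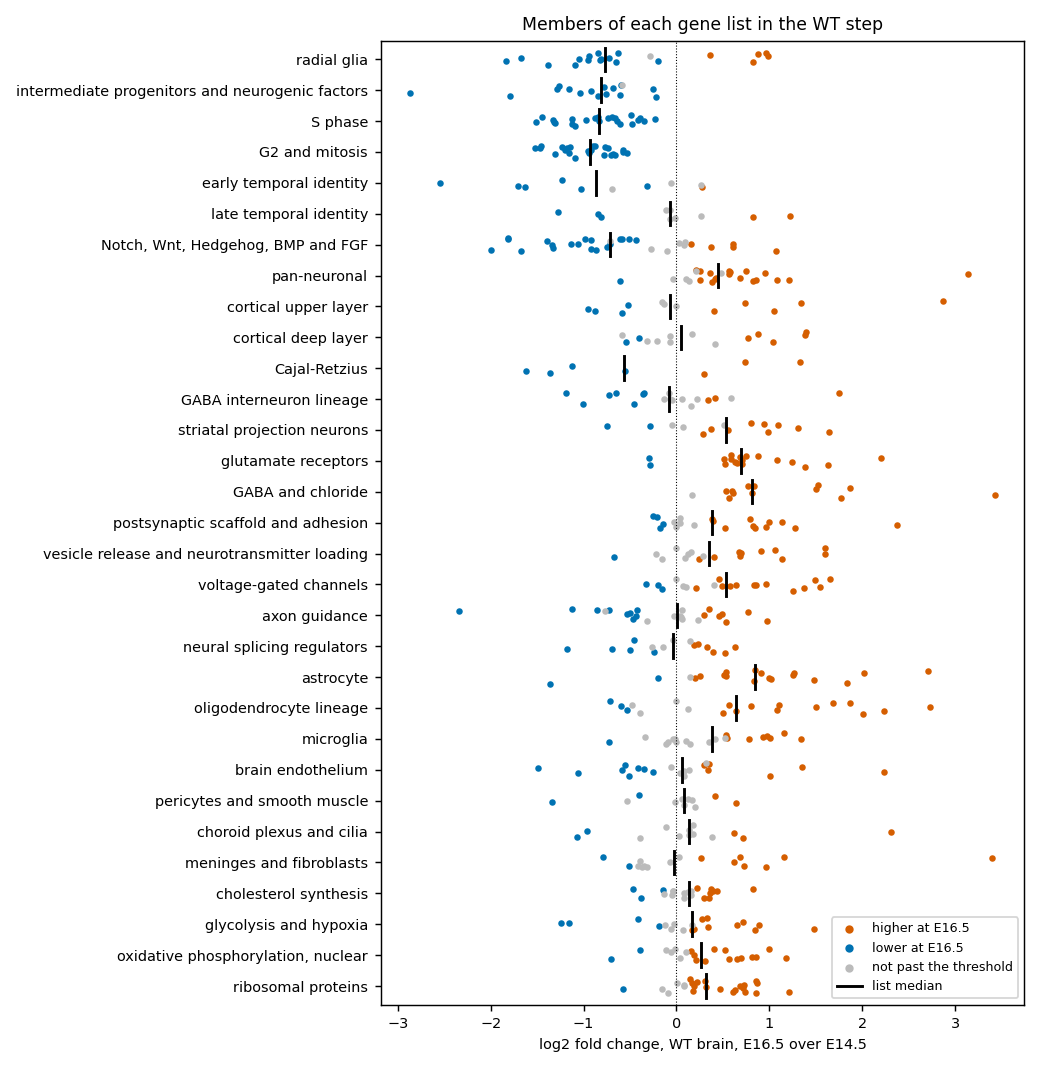
Log2 fold change of each tested member of 31 gene lists in the WT step, E16.5 over E14.5, with genes called higher in orange, lower in blue and not called in grey, and the list median as a black bar. All members of the S phase and the G2 and mitosis lists lie left of 0, and the medians of the astrocyte (0.84) and GABA and chloride (0.82) lists are the farthest to the right among those drawn.

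Genes of dividing cells fell without exception in the lists used. All 23 S phase genes and all 24 G2 and mitosis genes were lower at E16.5, with median log2 fold changes of -0.83 and -0.93, and the same 23 and 24 were lower without E16.5 replicate 1. Mki67, the proliferation antigen Ki-67, was at 216, 204, 230.0 and 213 CPM at E14.5 and 124, 117, 173 and 163 CPM at E16.5. The groups did not overlap, the log2 fold change was -0.58 ± 0.13 SE, adjusted p = 0.00414, and the mean was 505 ± 32.2 CPM at E12.5 and 40.0 ± 5.57 CPM at PND0. Top2a, the topoisomerase that untangles replicated DNA, was at 262, 269, 285 and 271 CPM at E14.5 and 142, 146, 198 and 196 CPM at E16.5, with E16.5 replicates 1 and 2 the lowest (log2 fold change -0.67 ± 0.11 SE, adjusted p = 6.15e-04). Rrm2, a subunit of the reductase that makes deoxynucleotides, fell by 1.33 on the log2 scale (adjusted p = 2.82e-04), and Pcna, the sliding clamp of DNA polymerase, by 0.39 (adjusted p = 2.55e-04).

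The fall was not of one size. Among S phase genes the log2 fold change ran from -1.51 for Cdt1, a factor that licenses replication origins, to -0.23. Uhrf1, which recruits the maintenance DNA methyltransferase, was at 133, 116, 139 and 122 CPM at E14.5 and 43.8, 35.7, 56.5 and 49.6 CPM at E16.5, so that its groups stood apart by a wide margin (log2 fold change -1.45 ± 0.13 SE, adjusted p = 1.20e-05). Among G2 and mitosis genes the fall ran from -1.53 for Ube2c, the ubiquitin-conjugating enzyme of the anaphase-promoting complex, to -0.54 for the kinetochore protein Cenpf. Plk1, a kinase of mitotic entry, was at 50.4, 46.5, 53.2 and 57.1 CPM at E14.5 and 18.1, 15.8, 21.6 and 18.8 CPM at E16.5. The groups did not overlap, with a log2 fold change of -1.47 ± 0.091 SE, adjusted p = 3.51e-09. In each of these S phase and mitosis genes E16.5 replicates 3 and 4 were both above replicates 1 and 2, and none reached the E14.5 range.

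Promoters of these genes are known to carry 3 kinds of element: the cell cycle genes homology region (CHR), read by the DREAM and MuvB complexes, the CCAAT box read by NF-Y, and the E2F site. Windows of 250 bases before the transcription start (RefSeq, build GRCm38.p6) were searched on both strands for TTTGAA or TTCGAA as the CHR, CCAAT as the CCAAT box, and TTTGGCGC or TTTCCCGC as the E2F site. Of the 17674 genes tested, 12266 had a window, of the S phase list 19 of 23 and of the G2 and mitosis list 20 of 24, and for genes with several starts a match in any window was counted. The CHR letters stood in 9 of 20 windows of G2 and mitosis genes (45%), in 2 of 19 of S phase genes (10.5%) and in 14.7% of all genes with a window. CCAAT stood in 17 of 20 (85%), 11 of 19 (57.9%) and 40%, and both together in 9 of 20 (45%), 2 of 19 (10.5%) and 5.67%. The E2F letters stood in none of the 20 G2 and mitosis windows, in 4 of 19 S phase windows (21.1%) and in 2.63% of all. A match of letters is a description and not a binding site, and in CCAATTGG of Ube2c the CCAAT boxes of both strands overlap.

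The windows of 4 G2 and mitosis genes with a CHR and of 1 S phase gene with an E2F match are shown because they hold these letters, 5′ to 3′ along the gene, with every match on either strand in capitals. They are Cdk1 at chr10:69352913-69353162 on the minus strand, Top2a at chr11:99024190-99024439 on the minus strand and Cdc20 at chr4:118437344-118437593 on the minus strand. Ube2c is at chr2:164769679-164769928 on the plus strand and Mcm6 at chr1:128359706-128359955 on the minus strand.
Cdk1: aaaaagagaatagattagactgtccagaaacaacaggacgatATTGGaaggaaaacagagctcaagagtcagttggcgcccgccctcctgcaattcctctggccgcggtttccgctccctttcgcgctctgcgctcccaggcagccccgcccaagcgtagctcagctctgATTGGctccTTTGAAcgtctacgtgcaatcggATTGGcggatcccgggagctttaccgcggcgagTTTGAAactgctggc
Top2a: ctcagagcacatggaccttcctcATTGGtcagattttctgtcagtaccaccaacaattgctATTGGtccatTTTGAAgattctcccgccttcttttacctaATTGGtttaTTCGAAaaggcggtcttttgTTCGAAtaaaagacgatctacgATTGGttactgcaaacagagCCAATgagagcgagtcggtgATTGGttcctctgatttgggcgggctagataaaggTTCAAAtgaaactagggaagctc
Cdc20: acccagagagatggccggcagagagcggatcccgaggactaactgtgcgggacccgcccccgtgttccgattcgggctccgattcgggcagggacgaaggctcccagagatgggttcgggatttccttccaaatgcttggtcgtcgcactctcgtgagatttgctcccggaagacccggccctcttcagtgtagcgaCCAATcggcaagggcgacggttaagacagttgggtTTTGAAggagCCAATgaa
Ube2c: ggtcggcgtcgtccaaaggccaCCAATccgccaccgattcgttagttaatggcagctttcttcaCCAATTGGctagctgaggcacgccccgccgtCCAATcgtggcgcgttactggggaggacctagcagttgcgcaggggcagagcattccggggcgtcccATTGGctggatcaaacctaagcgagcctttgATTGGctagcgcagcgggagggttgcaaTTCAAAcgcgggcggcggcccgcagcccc
Mcm6: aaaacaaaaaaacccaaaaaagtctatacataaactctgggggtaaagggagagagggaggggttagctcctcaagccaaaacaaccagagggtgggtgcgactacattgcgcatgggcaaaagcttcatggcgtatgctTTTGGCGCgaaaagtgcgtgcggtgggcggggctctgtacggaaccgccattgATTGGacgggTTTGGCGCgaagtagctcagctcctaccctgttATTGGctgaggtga

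Between the stages Cdk1, the kinase that drives mitosis, changed by -0.69, Cdc20, an activator of the anaphase-promoting complex, by -1.24, and Mcm6, a subunit of the replicative helicase, by -0.97 on the log2 scale. The 4 genes with CHR letters and the 1 with E2F letters thus moved in the same direction, as did every member of both lists, with or without the letters.

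Radial glia genes fell for the most part, and a smaller group of them rose. Of 20 members tested, 14 were lower and 5 higher (median log2 fold change -0.77), and without E16.5 replicate 1 the counts were the same. Sox2, a transcription factor that holds cells in the progenitor state, was at 204, 189, 219 and 205 CPM at E14.5 and 98.8, 108, 120.1 and 134 CPM at E16.5. The libraries of the stages did not overlap (log2 fold change -0.82 ± 0.081 SE, adjusted p = 2.26e-06). Vim, the intermediate filament vimentin, was at 686, 644, 708 and 694 CPM at E14.5 and 274, 294, 364 and 379.8 CPM at E16.5, again with no overlap (-1.05 ± 0.095 SE, adjusted p = 2.43e-06). Pax6, Nes and Hes5, a transcription factor, a filament protein and a target of Notch, fell by 0.65, 0.94 and 1.09 on the log2 scale.

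A rise was found in 5 radial glia genes. Fabp7, the brain fatty acid binding protein, was at 301, 311, 312 and 304 CPM at E14.5 and 631, 569, 480.3 and 571 CPM at E16.5. Each E16.5 library was above each of E14.5 (log2 fold change 0.88 ± 0.068 SE, adjusted p = 3.59e-08). Ptprz1, a receptor phosphatase, rose by 0.96 (adjusted p = 3.12e-09), Tnc, an extracellular matrix protein of the stem cell niche, by 0.82 (adjusted p = 1.24e-07), and Slc1a3, the glutamate transporter GLAST, by 0.36 (adjusted p = 4.50e-06) on the log2 scale. The 5 that rose also included Hopx, which was under 10 CPM in the mean of both stages.

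Of 16 genes of intermediate progenitors and neurogenic factors, 15 fell and none rose (median -0.81). Neurog2, a proneural factor of cortical progenitors, was at 166, 149.7, 172 and 148 CPM at E14.5 and 60.3, 47.5, 85.7 and 90.3 CPM at E16.5. Replicate 2 was the lowest of E16.5, and the groups did not overlap (log2 fold change -1.16 ± 0.21 SE, adjusted p = 0.00322). Neurog1, its relative, was at 11.8, 10.2, 11.1 and 11.1 CPM at E14.5 and 1.30, 1.855, 1.21 and 1.61 CPM at E16.5 and had 1 of the 12 largest falls of all well expressed genes (-2.87 ± 0.16 SE, adjusted p = 1.34e-09). Eomes, which marks intermediate progenitors, went from 132 ± 3.16 to 76.6 ± 20.1 CPM (SD, n = 4) with a log2 fold change of -0.78 ± 0.19 SE, adjusted p = 0.0104. Dll1 and Dll3, ligands of the Notch pathway, fell by 1.29 and 1.80 on the log2 scale. Insm1, a factor of delaminating progenitors, fell by 0.60 (adjusted p = 0.0276), a call that was lost when any 1 of 5 libraries was left out (E14.5 replicates 1, 2 and 3, E16.5 replicates 1 and 4). Tbr1, also a gene of deep-layer neurons, was the member not called, though its log2 fold change of -0.59 had the same direction.

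Signalling genes of the progenitor zones mostly fell. Of 30 genes of the Notch, Wnt, Hedgehog, BMP and FGF pathways, 19 were lower and 5 higher (median -0.72). Notch1, the receptor that keeps radial glia undifferentiated, was at 271, 256, 266 and 265 CPM at E14.5 and 64.7, 70.3, 103 and 92.5 CPM at E16.5, and no library of one stage reached the range of the other (-1.67 ± 0.14 SE, adjusted p = 2.14e-05). Gli2 and Gli3, transcription factors of the Hedgehog pathway, changed by -1.82 and -1.39, and Fgf15, a growth factor of the progenitor zone, by -1.82 on the log2 scale. Wnt8b, a Wnt ligand of the cortical hem, was at 17.4, 11.7, 16.9 and 13.4 CPM at E14.5 and 2.54, 2.67, 3.68 and 5.92 CPM at E16.5 (-1.996 ± 0.25 SE, adjusted p = 4.22e-05). Axin2, a feedback target of Wnt, and Ptch1, the Hedgehog receptor and target, fell by 0.72 and 0.43. Gli1, another Hedgehog target, was at 10.4 CPM at E14.5 and 10.5 CPM at E16.5 and was not called (adjusted p = 0.889). In the other direction Id2, a target of BMP signals, was at 70.0, 74.7, 69.2 and 66.0 CPM at E14.5 and 180.1, 112, 155 and 139.6 CPM at E16.5, all above E14.5 (1.07 ± 0.13 SE, adjusted p = 1.51e-04).

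Genes that mark early progenitors by age mostly fell. Of 10 such genes 6 fell and 1 rose (median -0.86). Hmga2, a chromatin protein of young stem cells, was at 25.2, 23.6, 28.4 and 24.8 CPM at E14.5 and 2.48, 4.52, 5.38 and 4.89 CPM at E16.5, and its mean was 144 ± 78.1 CPM at E12.5 and 1.502 ± 0.627 CPM at PND0. It was among the 12 largest falls (log2 fold change -2.55 ± 0.16 SE, adjusted p = 1.89e-08, and -2.37 without E16.5 replicate 1). Igf2bp1, Igf2bp2 and Igf2bp3, RNA-binding proteins of the same age class, fell by 1.70, 1.23 and 1.03. Lin28b, which blocks let-7 maturation, was at 20.6 and 24.6 CPM and was not called (adjusted p = 0.0722), but passed as higher without E16.5 replicate 1 (log2 fold change 0.32). Of 10 genes of late progenitors 2 rose and 3 fell: Zbtb20 and Tcf4, transcription factors, rose by 1.22 and 0.82, and Nfia, Sox9 and Prdm16 fell by 0.81, 1.27 and 0.84. Nfix was not called, with values of 458, 462, 426 and 435 CPM at E14.5 and 536, 262, 527 and 361 CPM at E16.5, in which the 4 E16.5 libraries were spread wider than the E14.5 ones.

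The progenitor and neuronal forms of the BAF chromatin remodelling complex were compared as well, since neurons swap subunits when they leave the cell cycle. All 4 genes listed as progenitor subunits fell (Actl6a -0.44, Phf10 -0.21, Ss18 -0.38 and Dpf2 -0.56 on the log2 scale). Of the 4 listed as neuronal subunits Actl6b (0.37) and Dpf1 (0.36) rose, while Dpf3 (-1.14) and Ss18l1 (-0.14) fell. The call of Ss18l1 was lost when any 1 of E14.5 replicates 1 and 2 and E16.5 replicates 3 and 4 was left out. Among 15 regulators of splicing 6 rose and 5 fell (median -0.037). Ptbp1, which represses neuronal exons in progenitors, was at 194, 185, 205 and 196 CPM at E14.5 and 81.4, 71.3, 98.7 and 92.0 CPM at E16.5 with no overlap (-1.18 ± 0.083 SE, adjusted p = 1.77e-07), whereas Ptbp2, its neuronal relative, was at 356 and 345 CPM and was not called (adjusted p = 0.567).

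**Figure D3:**
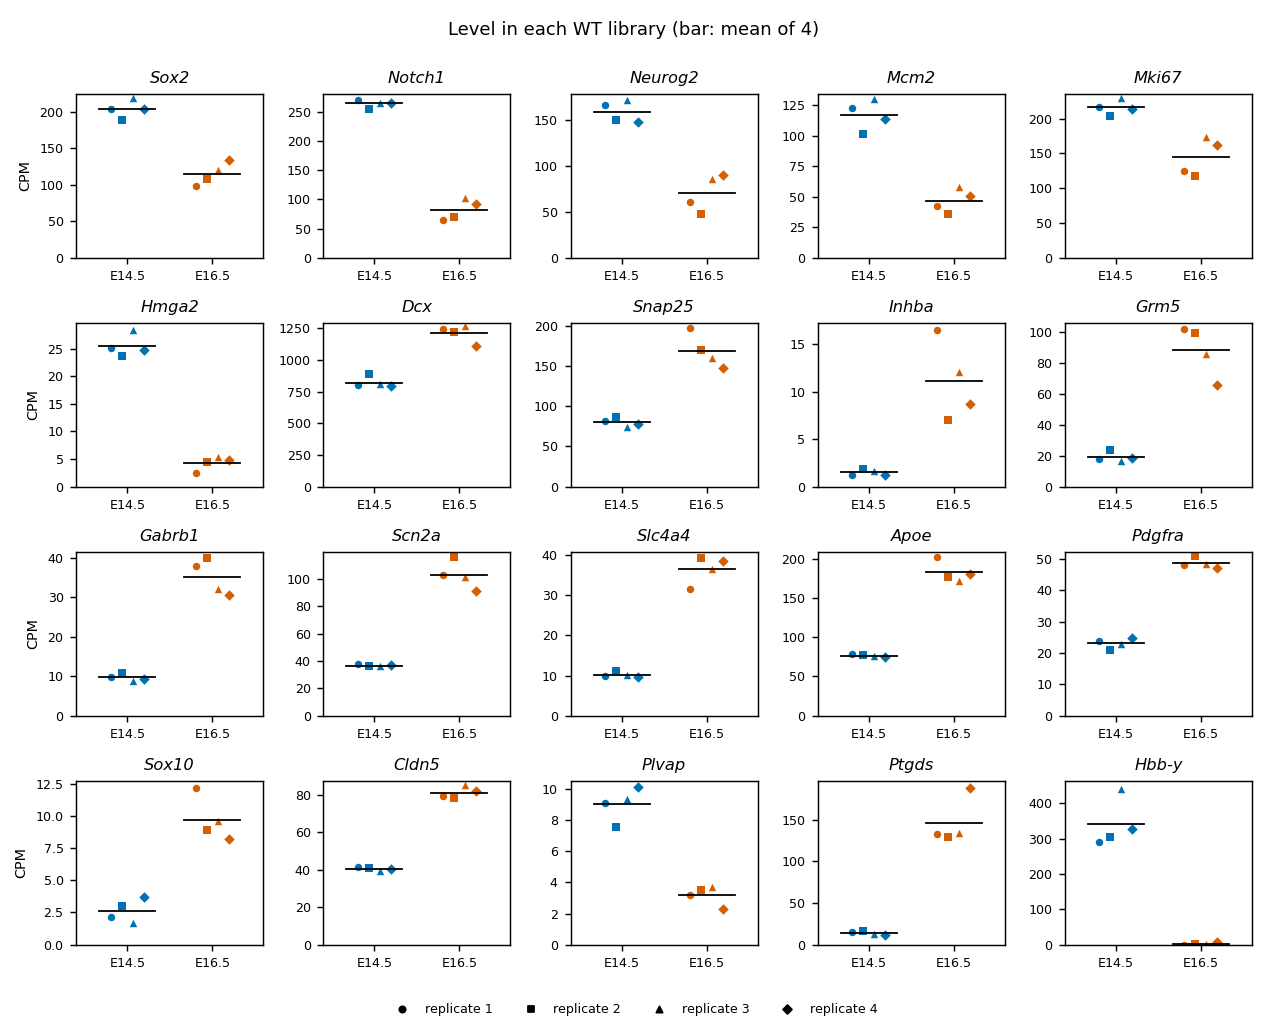
CPM of 20 genes in each WT library at E14.5 (blue) and E16.5 (orange), with symbols for replicates 1 to 4 and a bar at the mean of 4; each vertical axis starts at 0. The first 6 genes (Sox2 at 98.8 to 134 CPM at E16.5 against 189 to 219 CPM at E14.5), Plvap and Hbb-y lie lower at E16.5, and the other 12 lie higher.

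Most genes shared by all neurons rose. Of 24 pan-neuronal genes 18 were higher and 1 lower (median 0.45), or 17 and 2 without E16.5 replicate 1. Dcx, the microtubule protein of migrating neurons, was at 802, 889.7, 808 and 793 CPM at E14.5 and 1247, 1221, 1271 and 1111 CPM at E16.5. The stages did not overlap (0.57 ± 0.056 SE, adjusted p = 4.22e-07). Snap25, a protein of the vesicle fusion machinery, was at 81.3, 86.2, 73.7 and 78.2 CPM at E14.5 and 198, 169.5, 160.5 and 147 CPM at E16.5, with replicate 1 the highest at E16.5 (1.09 ± 0.082 SE, adjusted p = 2.89e-07, and 0.99 without it). Stmn2, Map2 and Tubb3, a regulator of microtubules, a dendritic microtubule protein and neuronal tubulin, rose by 0.82, 0.58 and 0.25 on the log2 scale. Rbfox3, the nuclear antigen NeuN of mature neurons, was called at 0.21 (adjusted p = 0.0434), but the call was lost in 6 of the 8 fits that left out 1 library, and the value without E16.5 replicate 1 was 0.10.

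One pan-neuronal gene fell: Ina, the filament alpha-internexin, was at 807, 792, 822 and 799 CPM at E14.5 and 504, 573, 498 and 524 CPM at E16.5 (-0.61 ± 0.053 SE, adjusted p = 1.01e-07). The stages did not overlap. Nefl, the light neurofilament, was at 83.3 and 115 CPM and was not called (adjusted p = 0.0689), with replicate 2 far above the other E16.5 libraries.

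Most receptors for glutamate, the main excitatory transmitter, rose. Of 18 genes 16 were higher and 2 lower (median 0.69). Grm5, a metabotropic receptor, was at 17.7, 23.9, 16.9 and 18.6 CPM at E14.5 and 102, 99.8, 86.2 and 65.9 CPM at E16.5. Every E16.5 library was more than 2-fold above every E14.5 library (2.20 ± 0.17 SE, adjusted p = 7.76e-06). Grin2b, the NMDA receptor subunit of young neurons, was at 104, 115, 95.0 and 101 CPM at E14.5 and 295, 199, 206 and 179 CPM at E16.5, with replicate 1 the highest (1.08 ± 0.16 SE, adjusted p = 9.79e-04, and 0.90 without it). Grin1, the subunit that every NMDA receptor needs, rose by 0.58 and Gria1, an AMPA receptor subunit, by 0.65 on the log2 scale. Gria2, the subunit that makes AMPA receptors impermeable to calcium, was at 241, 267, 233 and 232 CPM at E14.5 and 744, 763, 796 and 694 CPM at E16.5 and was 1 of the 5 genes with the highest level among those past 2-fold (1.63 ± 0.060 SE, adjusted p = 6.45e-11). Its mean was 191 ± 77.9 CPM at E12.5 and 415 ± 9.63 CPM at PND0, so that the E16.5 libraries stood above those of all 3 other stages. The 2 that fell, Grik3 and Grik5, encode kainate receptor subunits and changed by -0.28 and -0.29. In both, every E12.5 and E16.5 library was below every E14.5 and PND0 library, an order counted for all genes further on.

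GABA receptors and chloride transporters showed the same direction. Of 13 genes 12 rose and none fell (median 0.82). Gabrb1, a beta subunit of the GABA-A receptor, was at 9.92, 10.7, 8.69 and 9.38 CPM at E14.5 and 37.97, 39.9, 32.01 and 30.6 CPM at E16.5 with no overlap (1.86 ± 0.10 SE, adjusted p = 1.35e-09). Gabra5 and Gabrg1, an alpha and a gamma subunit, rose by 1.52 and 1.499. Gabrb2 had the largest change of the list, with 3.38, 5.30, 3.34 and 3.29 CPM at E14.5 and 31.2, 49.4, 46.5 and 39.2 CPM at E16.5 (3.43 ± 0.20 SE, adjusted p = 2.15e-07), but its mean was 20.2 ± 7.20 CPM at E12.5 and 8.12 ± 1.78 CPM at PND0, so that it was high at E12.5 and E16.5 and low at the other 2 stages. Slc12a2, the importer NKCC1 that loads young neurons with chloride, was at 51.9, 53.6, 54.6 and 50.6 CPM at E14.5 and 78.9, 75.4, 85.3 and 76.9 CPM at E16.5 (0.59 ± 0.056 SE, adjusted p = 2.37e-07). Slc12a5, the chloride exporter KCC2 of mature neurons, was at 136, 139, 129 and 135 CPM at E14.5 and 133, 195, 130.1 and 144 CPM at E16.5 and was not called (adjusted p = 0.291), with replicate 2 above the rest.

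Genes of the synapse itself rose more often than they fell. Of 20 postsynaptic scaffold and adhesion genes 11 rose and 4 fell (median 0.38). Camk2b, a calcium-dependent kinase of the postsynapse, was at 123, 134, 124 and 125.2 CPM at E14.5 and 392, 255, 249 and 213 CPM at E16.5, of which replicate 1 was the highest (1.14 ± 0.19 SE, adjusted p = 0.00200, and 0.91 without it). Lrrtm2 and Nlgn1, adhesion proteins that organise excitatory synapses, rose by 1.27 and 0.82. Dlg4, the scaffold PSD-95, fell by 0.14 (adjusted p = 0.0150) and Shank3, another scaffold, by 0.25 (adjusted p = 0.00103). Camk2a, the alpha subunit of the same kinase, was not called (adjusted p = 0.409). Nrgn, a calmodulin-binding protein of dendrites, ran from 9.64 to 66.3 CPM at E16.5 against 5.09 to 8.19 CPM at E14.5 (2.37 ± 0.65 SE, adjusted p = 0.0203), and without replicate 1, the highest library, the log2 fold change was 1.70. That call was lost without E14.5 replicate 2, 3 or 4.

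Of 18 genes of vesicle release and transmitter loading 10 rose and 1 fell (median 0.35), or 11 and 2 without E16.5 replicate 1. Pclo and Bsn are large scaffolds of the presynaptic release site and went opposite ways, Pclo at 1.14 and Bsn at -0.67 on the log2 scale. For Bsn the libraries were at 244, 249.7, 242 and 255 CPM at E14.5 and 153, 150.4, 155 and 159 CPM at E16.5, without overlap (-0.67 ± 0.045 SE, adjusted p = 7.49e-09). The vesicular glutamate transporters Slc17a6 and Slc17a7 were not called (adjusted p = 0.984 and 0.477). For Slc17a6, which is used in thalamus, midbrain and hindbrain, the libraries were at 105, 112, 116 and 107 CPM at E14.5 and 70.7, 132, 113 and 119.9 CPM at E16.5. Replicate 1 was the lowest of all 8, and without it the gene passed the test at 0.14 (adjusted p = 0.0453).

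Of 20 voltage-gated channel genes 13 rose and 3 fell (median 0.53). Scn2a, the main sodium channel of young axons, was at 37.7, 36.0, 36.0 and 36.8 CPM at E14.5 and 103, 116, 102 and 90.8 CPM at E16.5. The stages were far apart (1.495 ± 0.068 SE, adjusted p = 4.66e-10). Scn1a rose by 1.37, Scn3a, the embryonic sodium channel, by 0.85, and Cacna1e, a calcium channel, by 1.25. Cacna1a, the P/Q calcium channel, fell by 0.33 (adjusted p = 1.88e-04).

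Axon guidance genes had no common direction. Of 24 genes 7 rose and 9 fell (median 0.0085, or -0.097 without E16.5 replicate 1). Robo3, the receptor that lets hindbrain and spinal axons cross the midline, was at 68.3, 58.8, 75.1 and 75.8 CPM at E14.5 and 7.44, 15.02, 15.1 and 16.8 CPM at E16.5. It had 1 of the 12 largest falls (-2.34 ± 0.23 SE, adjusted p = 6.98e-05), and replicate 1 was the lowest (-2.16 without it). Dcc, the netrin receptor, fell by 0.43 and Slit1, a repellent of axons, by 0.85. Sema3c, an attractant of callosal axons, rose by 0.98 and Epha7, an ephrin receptor, by 0.53 on the log2 scale. Ntn1, the netrin that Dcc binds, was at 124, 113, 127 and 124 CPM at E14.5 and 45.5, 102, 50.6 and 86.9 CPM at E16.5 and was not called (adjusted p = 0.0548).

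Genes of cortical layers moved gene by gene. Of 12 upper-layer genes 5 rose and 4 fell (median -0.069), and of 14 deep-layer genes 5 rose and 2 fell (median 0.050), or 6 and 4 without E16.5 replicate 1. Inhba, a subunit of activin, was at 1.20, 1.90, 1.65 and 1.27 CPM at E14.5 and 16.51, 7.01, 12.1 and 8.74 CPM at E16.5 (2.87 ± 0.27 SE, adjusted p = 2.88e-06, and 2.60 without replicate 1). Unc5d, a receptor of upper-layer neurons, rose by 1.05. Mdga1 and Cux1, an adhesion protein and a transcription factor of the same layers, fell by 0.59 and 0.52, while Cux2 was at 140.4 and 126 CPM and was not called (adjusted p = 0.120).

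Among deep-layer genes Bcl11b, the factor CTIP2 of subcerebral neurons, was at 369.9, 381, 350.0 and 348 CPM at E14.5 and 295, 198, 276 and 221 CPM at E16.5, below E14.5 in every library (-0.54 ± 0.12 SE, adjusted p = 0.00330). Fezf2, which specifies the same neurons, was at 76.2, 73.9, 80.0 and 69.5 CPM at E14.5 and 79.5, 40.1, 89.6 and 75.9 CPM at E16.5 and was not called (adjusted p = 0.8288), with replicate 2 well under the other 7 libraries. Tbr1, the layer 6 factor, was at 223, 230.5, 220.5 and 218 CPM at E14.5 and 210.0, 95.4, 156 and 129 CPM at E16.5 (log2 fold change -0.59 ± 0.23 SE, adjusted p = 0.0694). It was below E14.5 in every E16.5 library, missed the threshold, and passed it at -0.82 without replicate 1. Hs3st4 and Ldb2, genes of corticothalamic and subcerebral neurons, rose by 1.38 and 0.77, and Tle4, a corepressor of layer 6, fell by 0.40.

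Most striatal projection neuron genes rose, with 9 of 14 higher and 2 lower (median 0.53). Ppp1r1b, the dopamine signalling protein DARPP-32, was at 7.70, 9.38, 7.04 and 8.49 CPM at E14.5 and 38.7, 14.4, 27.2 and 21.3 CPM at E16.5. Replicate 1 was the highest of the E16.5 libraries and replicate 2 the lowest (1.64 ± 0.30 SE, adjusted p = 0.00236, and 1.35 without replicate 1). The summed telencephalon genes ranked these libraries in the same order, and a link between the 2 was not tested. Tac1, the precursor of substance P, rose by 1.09. Drd1, the dopamine receptor of the direct pathway, was under 10 CPM at both stages and rose by 1.31. Penk, the enkephalin precursor of the indirect pathway, was not called (adjusted p = 0.803). Ebf1, a factor of young striatal neurons, fell by 0.75.

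In the GABA interneuron lineage 3 of 18 genes rose and 7 fell (median -0.078). Nkx2-1, which patterns the medial ganglionic eminence, was at 82.0, 72.6, 79.3 and 73.0 CPM at E14.5 and 30.7, 39.9, 25.8 and 38 CPM at E16.5, without overlap (-1.18 ± 0.12 SE, adjusted p = 1.06e-05). Dlx2, a factor of ventral progenitors, fell by 1.003, while Maf, of maturing interneurons, rose by 0.42. Gad1 and Gad2, the enzymes that make GABA, differed: Gad2 fell by 0.36 and Gad1 was not called (log2 fold change 0.22, adjusted p = 0.0726). Npy, a neuropeptide, was at 8.36, 6.82, 9.14 and 8.195 CPM at E14.5 and 47.2, 23.6, 23.1 and 15.2 CPM at E16.5, so that replicate 1 was the highest by far (1.75 ± 0.36 SE, adjusted p = 0.00561, and 1.34 without it). Without replicate 1, 10 of the 18 genes were called lower.

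Of 7 genes of Cajal-Retzius cells, the first neurons of the cortical surface, 3 rose and 4 fell (median -0.56). Reln, the secreted guide of cortical layering, rose by 0.29 (adjusted p = 5.09e-04), and Calb2, calretinin, was at 21.8, 21.5, 21.4 and 20.7 CPM at E14.5 and 60.9, 49.3, 45.3 and 58.2 CPM at E16.5 (1.33 ± 0.088 SE, adjusted p = 5.94e-09). Trp73, the factor that Cajal-Retzius cells need, fell by 0.56 (adjusted p = 5.76e-04). Reln and Calb2 are also made by other neurons.

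Genes of regions behind the telencephalon are given with and without E16.5 replicate 1. Of 12 cerebellar genes none rose and 3 fell, of 13 genes of monoamine neurons 1 rose and 3 fell, and of 13 of thalamus and hypothalamus 4 rose and 3 fell. Without replicate 1 these counts were 1 and 5 of the 12, 1 and 4 of the 13, and 5 and 3 of 14, since 1 more gene of the last list then passed the filter on low counts. Many of these genes were low: 9 of the cerebellar, 5 of the monoamine and 7 of the thalamus and hypothalamus genes were at 10 CPM or more. Zic2 and Gata2, transcription factors of cerebellum and of midbrain and brainstem neurons, fell by 0.71 and 1.47, and by 0.65 and 1.23 without replicate 1. En2 passed the test without replicate 1 (-1.30, adjusted p = 0.0321) and not with it (adjusted p = 0.0870). Gbx2, a factor of the thalamus, fell by 1.11, while Tcf7l2, also of the thalamus, spread from 115 to 318 CPM over the E16.5 libraries, with replicate 1 the lowest, and was not called (adjusted p = 0.145). Only 2 of 16 genes of hindbrain and spinal cord passed the filter on low counts, and neither was called. Dbx1, Tal2 and Skor1, transcription factors of diencephalon, midbrain and hindbrain cells, were among the 12 largest falls (-2.72, -2.69 and -2.12), and were at 0.457, 0.522 and 1.17 CPM in replicate 1. Without it the values were -2.36, -2.34 and -1.89. The call of Skor1 was lost in 7 of the 8 fits that left out 1 library, and without replicate 2, its highest E16.5 library, it fell by 3.40 on the log2 scale. How far the makeup of this library shaped other results was not tested beyond leaving it out.

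Most astrocyte genes rose. Of 19 genes 16 were higher and 2 lower (median 0.84). Slc4a4, a bicarbonate cotransporter of astrocytes, was at 9.83, 11.2, 10.2 and 9.63 CPM at E14.5 and 31.6, 39.3, 36.5 and 38.5 CPM at E16.5. All E16.5 values were more than 2-fold above all E14.5 values (1.84 ± 0.090 SE, adjusted p = 7.24e-10). Apoe, the main carrier of lipid in the brain, was at 79.0, 77.1, 75.9 and 74.5 CPM at E14.5 and 202, 176, 172 and 180.5 CPM at E16.5 with the 4 libraries of each stage close together (1.26 ± 0.054 SE, adjusted p = 4.12e-10). Sparcl1, a matrix protein that promotes synapses, rose by 0.999, Cst3, a protease inhibitor, by 1.02, and Aldh1l1, a folate enzyme that marks astrocytes, by 0.54. Aqp4 and Gfap, the water channel and the filament of mature astrocytes, rose but stayed below 10 CPM at both stages (E16.5 means of 4.71 and 2.29 CPM). The log2 fold change of Gfap was 2.71, and 2.02 without replicate 1. Fgfr3, a receptor that astrocyte precursors share with radial glia, was at 147, 137, 155 and 142 CPM at E14.5 and 47.6, 58.5, 53.7 and 64.9 CPM at E16.5, the reverse direction (-1.36 ± 0.079 SE, adjusted p = 8.50e-09), and Slc1a2, the glutamate transporter GLT-1, fell by 0.20 (adjusted p = 0.00693).

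Of 19 oligodendrocyte lineage genes, 10 of them at 10 CPM or more, 12 rose and 3 fell (median 0.64). Pdgfra, the growth factor receptor of oligodendrocyte precursors, was at 23.7, 21.1, 22.7 and 24.9 CPM at E14.5 and 48.1, 50.7, 48.4 and 47.1 CPM at E16.5 with no overlap (1.08 ± 0.069 SE, adjusted p = 4.48e-09), and Olig1, a transcription factor of the lineage, rose by 1.5. Sox10, another, was under 10 CPM in the mean of both stages, at 2.13, 3.02, 1.69 and 3.72 CPM at E14.5 and 12.2, 8.87, 9.60 and 8.17 CPM at E16.5 (1.87 ± 0.21 SE, adjusted p = 3.01e-06). Olig2, which progenitors of several fates express, was at 25.0, 21.5, 27.2 and 25.2 CPM at E14.5 and 24.8, 24.2, 22.3 and 26.7 CPM at E16.5. Its stages overlapped fully (log2 fold change -0.0062, adjusted p = 0.957). Mbp, a gene of compact myelin, fell by 0.60 (adjusted p = 5.46e-05).

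Microglia genes were low, with 9 of 20 at 10 CPM or more. Of 20, 8 rose and 1 fell (median 0.38). The 3 chains of the complement protein C1q rose, C1qa by 1.16, C1qb by 0.93 and C1qc by 1.34. For C1qc the libraries were at 6.89, 6.46, 6.45 and 7.01 CPM at E14.5 and 18.5, 14.2, 15.9 and 19.2 CPM at E16.5, without overlap (adjusted p = 8.76e-08). The receptors Csf1r and Cx3cr1 and the purine receptor P2ry12, which mark microglia by identity, were not called (adjusted p = 0.526, 0.396 and 0.967). Laptm5, a lysosomal protein of blood cells, fell by 0.73.

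In brain endothelium 6 of 20 genes rose and 8 fell (median 0.059), with barrier genes on both sides. Cldn5, the tight junction protein of the blood-brain barrier, was at 41.3, 41.1, 39.5 and 40.4 CPM at E14.5 and 79.2, 78.4, 85.3 and 82.3 CPM at E16.5. The 4 values of each stage lay within a narrow band (1.01 ± 0.054 SE, adjusted p = 1.14e-09). Slco1c1, a barrier carrier of thyroid hormone, rose by 1.35. Plvap, which forms the diaphragms of leaky vessels, was under 10 CPM in the mean of both stages, at 9.12, 7.59, 9.37 and 10.1 CPM at E14.5 and 3.20, 3.54, 3.68 and 2.31 CPM at E16.5. It was lower in every E16.5 library (-1.49 ± 0.16 SE, adjusted p = 8.55e-07). Kdr and Cdh5, the VEGF receptor and the cadherin of endothelium, fell by 0.58 and 0.52, Mfsd2a, a barrier lipid carrier, by 0.35, and Slc2a1, the glucose carrier of the barrier, by 0.41. Pecam1, found in all endothelium, was not called (adjusted p = 0.662). Of 11 genes of pericytes and smooth muscle 2 rose and 2 fell. Among them Rgs5, a signalling regulator of pericytes, changed by 0.42, and Pdgfrb, their growth factor receptor, by -0.40.

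Blood genes had the largest fold change of all well expressed genes. Hbb-y, an embryonic beta globin of primitive red cells (chr7:103851749-103853216, GRCm38), was at 289, 304, 442 and 327 CPM at E14.5 and 0.392, 2.32, 2.42 and 6.56 CPM at E16.5. Its mean was 2765 ± 1522 CPM at E12.5 and 0.0569 CPM at PND0 (-6.86 ± 0.49 SE, adjusted p = 3.41e-05, or -7.60 without E16.5 replicate 4, its highest library). Hba-x, the embryonic alpha globin (chr11:32276400-32278116, GRCm38), was at 37.9, 37.8, 62.5 and 46 CPM at E14.5 and 0.131, 0.464, 1.33 and 2.06 CPM at E16.5 (-5.52 ± 0.46 SE, adjusted p = 5.44e-05, or -6.12 without the same library). Of 8 adult globin and erythroid genes tested, 3 rose and 1 fell. Without E16.5 replicate 1, when 10 genes of the list passed the filter on low counts, 2 rose and 3 fell. Hbb-bt, an adult beta globin, was at 68.0, 75.7, 81.1 and 56.7 CPM at E14.5 and 112, 103, 187 and 203 CPM at E16.5, above E14.5 in every library (1.11 ± 0.27 SE, adjusted p = 0.0126), while Hba-a1, an adult alpha globin, was not called (adjusted p = 0.359). Hba-a2 was called with overlapping groups (1.54 ± 0.46 SE, adjusted p = 0.0291), a call lost in 7 of the 8 fits that left out 1 library. The adult globins are near-identical copies (Hba-a1 with Hba-a2, Hbb-bs with Hbb-bt), so that how their reads were divided is uncertain.

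Of 16 genes of meninges and fibroblasts 7 rose and 2 fell (median -0.022, or 0.062 without E16.5 replicate 1). Ptgds, the prostaglandin D synthase of meningeal cells, had 1 of the 12 largest rises, at 15.4, 16.2, 12.6 and 11.1 CPM at E14.5 and 133, 129.7, 134 and 188 CPM at E16.5. It was higher again at PND0, at 271 ± 45.2 CPM (3.40 ± 0.17 SE, adjusted p = 1.22e-06). Slc6a13, a GABA carrier of the meninges, rose by 1.16 and Dcn, the matrix protein decorin, by 0.62, while Col3a1, a fibrillar collagen, fell by 0.51. In the choroid plexus list 3 of 13 rose and 2 fell. Ttr, the thyroid hormone carrier of the choroid plexus, was at 303, 394, 318 and 450.4 CPM at E14.5 and 669, 386, 768 and 574 CPM at E16.5 with overlapping stages (0.72 ± 0.24 SE, adjusted p = 0.0432), and the call was lost in 6 of the 8 fits that left out 1 library.

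Genes of tissues outside the brain were near the floor at both stages. None of the skeletal muscle genes, 2 of 10 of cartilage and bone and 1 of 10 of skin reached 10 CPM. The 2 of cartilage are Col2a1 and Sox9, which neural progenitors also express, and both fell (-1.46 and -1.27). In the pituitary, pineal and eye list, of which 5 of 13 were tested, 1 rose and 4 fell (2 and 3 of 6 tested without E16.5 replicate 1), and the calls of Otx2 and Pomc, a factor of the choroid plexus and eye and a pituitary hormone precursor, were each lost in 7 of the 8 fits that left out 1 library.

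Cholesterol synthesis genes moved little. Of 20 genes 8 rose and 3 fell, all by under 2-fold (median 0.14). Dhcr7, the enzyme that is deleted in the KO brains, was at 69.5, 70.4, 68.8 and 69.7 CPM at E14.5 and 66.5, 63.4, 62.1 and 59.1 CPM at E16.5 in WT. The E16.5 libraries were all slightly lower (-0.14 ± 0.053 SE, adjusted p = 0.0308), and the call was lost when any 1 of E14.5 replicates 2 and 4 and E16.5 replicates 3 and 4 was left out. Pmvk, an enzyme of the mevalonate pathway, rose by 0.83, Fdft1, squalene synthase, by 0.39, and Msmo1, a sterol demethylase, by 0.43, and Idi1, which isomerises the isoprene unit, fell by 0.38. Hmgcs1 and Sqle, enzymes of the mevalonate and squalene steps, were not called (adjusted p = 0.282 and 0.501).

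Of 19 genes of sterol handling and lipid transport 3 rose and 7 fell (median -0.066). Srebf1 and Srebf2, the transcription factors that drive lipid and sterol genes, fell by 0.73 and 0.66. Abca1, which exports cholesterol to lipoproteins, rose by 0.83, Vldlr, a reelin and lipoprotein receptor, by 0.82, and Abcg1, another exporter, fell by 0.61.

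Genes of energy metabolism rose more often than they fell. Of 19 genes of glycolysis and hypoxia 10 rose and 4 fell (median 0.17), and of 20 nuclear genes of oxidative phosphorylation and energy transfer 13 rose and 2 fell (median 0.26). Pfkp, the phosphofructokinase of brain, was at 183, 191, 166 and 174 CPM at E14.5 and 532, 566, 469.5 and 423 CPM at E16.5, apart by more than 2-fold in every library (1.49 ± 0.084 SE, adjusted p = 1.61e-08). Hk2, the hexokinase of dividing cells, fell by 1.16. Gapdh, of glycolysis, fell by 1.24, but shares its sequence with many pseudogenes, so that its counts are uncertain (means of 79.6 CPM at E12.5 and 123 CPM at PND0, against 134 and 56.2). Cox6a1 and Ndufa4, subunits of the respiratory chain, rose by 1.001 and 0.85, and Ckb, the brain creatine kinase, fell by 0.70. The mean of Cox6a1 was 206 CPM at E12.5 and 148 CPM at PND0, against 126 at E14.5 and 252 at E16.5.

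Of 24 ribosomal protein genes 18 rose and 1 fell (median 0.32), or 18 and 2 without E16.5 replicate 1. In 17 of the 24 every E12.5 and every E16.5 library was above every E14.5 and PND0 library. Rps27a, a ribosomal protein fused to ubiquitin, was at 96.3, 84.8, 112 and 111 CPM at E14.5 and 248, 246, 189.9 and 245 CPM at E16.5 (1.21 ± 0.12 SE, adjusted p = 1.80e-05), and its mean was 245 ± 18.2 CPM at E12.5 and 57.1 ± 8.10 CPM at PND0. Ribosomal protein transcripts are short, and over 11046 well expressed genes with a known length the Spearman correlation of the log2 fold change with transcript length was -0.14, across genes, which are not independent replicates. The part of length in this result was not tested. These genes also have many processed copies in the genome, so that the share of their reads that was counted is uncertain. This order over the 4 stages, counted for all genes after the single lists, was found in more members of this list than of any other.

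Of 15 genes that respond to or carry steroid and thyroid hormones 9 rose and 2 fell (median 0.56). Thra, a thyroid hormone receptor, went from 429 ± 10.04 to 663 ± 78.8 CPM (0.63 ± 0.069 SE, adjusted p = 1.30e-06), and Nr3c1, the glucocorticoid receptor, rose by 0.67. Crym, which binds thyroid hormone, rose by 1.39, and by 1.16 without replicate 1. Klf9 and Dio2, a hormone target and the enzyme that makes active thyroid hormone, rose by 1.42 and 2.77 from means of 2.76 and 0.553 CPM. Both stayed below 10 CPM in the mean of both stages. Fkbp5, a glucocorticoid target, fell by 0.34. Of 12 immediate early genes 3 rose and 5 fell, with Jun, a subunit of the factor AP-1, changed by -0.67 on the log2 scale. Without E16.5 replicate 1 only Fos remained among the 3 that rose. Of 15 neurotrophins and growth factors 6 rose and 6 fell, among them Igf1 and Vgf, a growth factor and a secreted neuropeptide precursor, at 1.47 and 1.37, and Ngfr, the p75 neurotrophin receptor, at -0.88.

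The largest rises were mostly predicted genes. Of the 12 largest rises among well expressed genes whose groups did not overlap, 8 carry only a predicted-gene symbol, and the others were Rn7sk, Gabrb2, Ptgds and Xkr4. Gm38394, annotated as protein-coding at chr1:133619940-133661318 (GRCm38), was at 1.56, 1.86, 1.10 and 1.31 CPM at E14.5 and 37.8, 45.9, 59.7 and 49.8 CPM at E16.5 (5.03 ± 0.17 SE, adjusted p = 8.75e-10). Its mean was 86.4 ± 8.27 CPM at E12.5 and 1.17 ± 0.616 CPM at PND0, and so it was high at E12.5 and E16.5 and low at the other stages. Xkr4, a membrane scramblase of the nervous system, was at 2.85, 2.78, 1.83 and 2.999 CPM at E14.5 and 20.4, 29.2, 30.4 and 21.1 CPM at E16.5 (3.27 ± 0.17 SE, adjusted p = 4.57e-09), and at 10.9 and 7.76 CPM at E12.5 and PND0. Rn7sk, a short RNA that is not polyadenylated, was at 1.87, 1.09, 1.14 and 1.14 CPM at E14.5 and 73.7, 13.7, 5.38 and 7.72 CPM at E16.5, so that replicate 1, the library with most ribosomal RNA, was the highest (4.26 ± 1.12 SE, adjusted p = 0.0174, and 2.77 without it). The call was lost without E14.5 replicate 2.

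This order over the 4 stages was counted in all well expressed genes. In 39 genes the E12.5 and E16.5 libraries stood 2-fold or more apart from those of E14.5 and PND0, 38 of them higher and 1 lower. They were 15 of 10679 protein-coding genes, 15 of 146 pseudogenes and 9 of 353 other genes, 8 of the 12 largest rises and 1 of the 12 largest falls (Gm3362, a pseudogene), and no member of the lists. With no limit on the fold, every E12.5 and E16.5 library was above every E14.5 and PND0 library in 898 of the 11178 genes (8.03%), in 875 of the 3546 called higher (24.7%) and in 96 of the 409 past 2-fold (23.5%). The reverse order was found in 801 genes (7.17%), in 780 of the 4029 called lower (19.4%) and in 22 of the 299 past 2-fold (7.36%). Among the lists such an order was most frequent in ribosomal proteins (17 of 24 above) and oxidative phosphorylation (7 of 20 above), and it was not seen in any S phase or G2 and mitosis gene. In the synapse lists the reverse order was found in 3 of 20 postsynaptic scaffold and adhesion genes and 2 of 18 glutamate receptor genes. It was also found in 2 of 20 voltage-gated channel genes, 1 of 18 genes of vesicle release and transmitter loading and 1 of 24 axon guidance genes. Of the GABA receptor and chloride transporter genes, 2 of 13 had the first order and none the reverse. The reverse order was not particular to the synapse. Among other lists it was found in 3 of 15 mitochondrially encoded genes, 3 of 19 of sterol handling and lipid transport and 2 of 12 upper-layer genes. For genes with either order a change between stages and a difference between the deposited tables cannot be told apart.

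**Figure D4:**
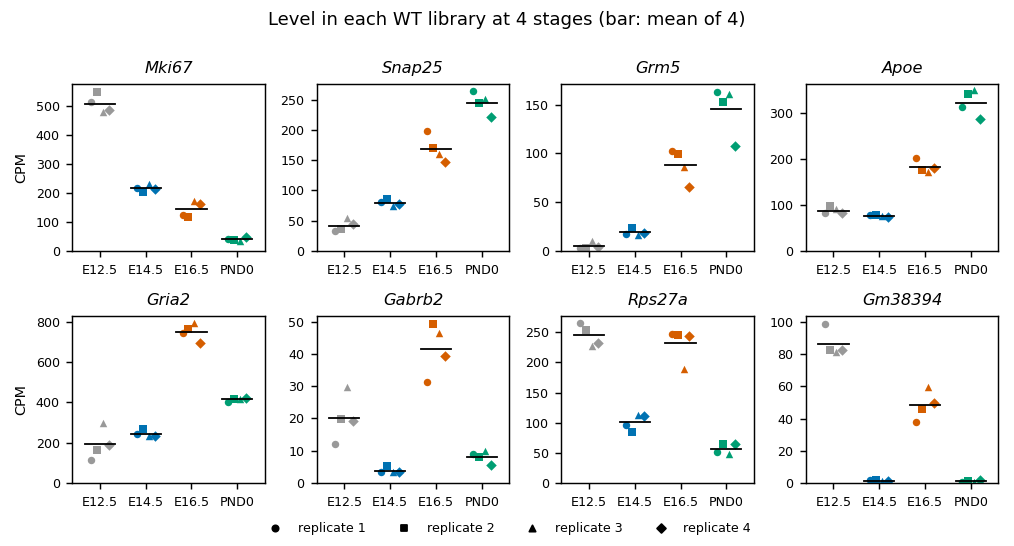
CPM of 8 genes in each WT library at the 4 stages, with symbols for replicates 1 to 4 and a bar at the mean of 4; each vertical axis starts at 0. Mki67, Snap25, Grm5 and Apoe at E16.5 lie on the way to their PND0 levels, while Gabrb2, Rps27a and Gm38394 are high at E12.5 and E16.5 and low at E14.5 and PND0.

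The falls were led by other genes. After the embryonic globins and Gm3362 came Neurog1, Dbx1, Tal2, Hmga2 and Robo3, described above, and D030055H07Rik (-2.25), an antisense RNA. Ticrr, which starts DNA replication, was at 33.9, 35.7, 38.03 and 30.7 CPM at E14.5 and 7.05, 5.62, 11.3 and 9.13 CPM at E16.5 (-2.06 ± 0.17 SE, adjusted p = 2.07e-06). Whether the counting used the strand of the reads is not given in the sources used here, and so reads of an antisense gene and of its partner cannot be told apart. By level, the 5 highest genes past 2-fold were Zmiz1 (-1.07), a transcriptional coregulator, Vim, Chd4 (-1.02), a chromatin remodeller, Ptn (1.10), the growth factor pleiotrophin, and Gria2. Ptn was at 359, 365, 356 and 332 CPM at E14.5 and 707, 710.1, 757 and 838 CPM at E16.5, high in each E16.5 library (1.10 ± 0.060 SE, adjusted p = 1.32e-09).

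The same interval in the KO brains, measured in 8 libraries that the WT comparison does not use, gave 5413 genes higher (30.9%) and 5337 lower (30.5%) of 17496 tested, 61.4% in either direction. Of the 11178 well expressed genes 7575 were called in WT and 7987 in KO, and 6689 in both. Of these 6674 had the same direction and 15 the opposite, so that 88.1% of the WT calls and 83.6% of the KO calls recurred in the other genotype in the same direction. Of the 708 WT calls past 2-fold, 707 were called in KO in the same direction. The KO libraries of a stage are in the same deposited table as its WT libraries, so that this recurrence does not separate stage from table. Grm5 changed by 2.24 in KO, Slc4a4 by 1.99, Hmga2 by -2.81 and Notch1 by -1.604 on the log2 scale. All 23 S phase and all 24 G2 and mitosis genes were lower in KO as well.

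A test of the difference itself, the WT step minus the KO step, called 5 of 18426 genes (0.0271%), with 1927 at an unadjusted p under 0.05. On a CPM scale set over these 16 libraries, Dhcr7 went from 70.6 ± 0.752 to 63.7 ± 3.31 CPM in WT and from 13.3 ± 1.12 to 17.4 ± 0.815 CPM in KO (difference in log2 fold change -0.53 ± 0.090 SE, adjusted p = 0.0285). Its level in KO was far below that in WT at both stages, and the direction of the change was opposite. Shc3, an adaptor of receptor signalling in neurons, went from 14.1 ± 1.66 to 17.2 ± 1.18 CPM in WT and from 7.81 ± 0.810 to 17.9 ± 2.71 CPM in KO (-0.91 ± 0.16 SE, adjusted p = 0.0285). Mir99ahg, a microRNA host transcript, went from 33.9 ± 2.55 to 27.2 ± 2.66 in WT and from 39.7 ± 2.79 to 19.5 ± 2.40 in KO (0.71 ± 0.12 SE, adjusted p = 0.0285). For Slc4a8, a bicarbonate carrier of neurons, and Skp1a, a subunit of ubiquitin ligases, the differences were -0.40 ± 0.070 SE, adjusted p = 0.0291 and 0.34 ± 0.061 SE, adjusted p = 0.0343. When single libraries were left out the number of genes called ran from 0 to 35, the highest without WT E16.5 replicate 1, and DESeq2 called 213, so that this count depended on the libraries and the tool. No member of the S phase, G2 and mitosis, glutamate receptor or astrocyte lists was among the 5, which with so few calls in 18426 genes says little about these lists.

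**Figure D5:**
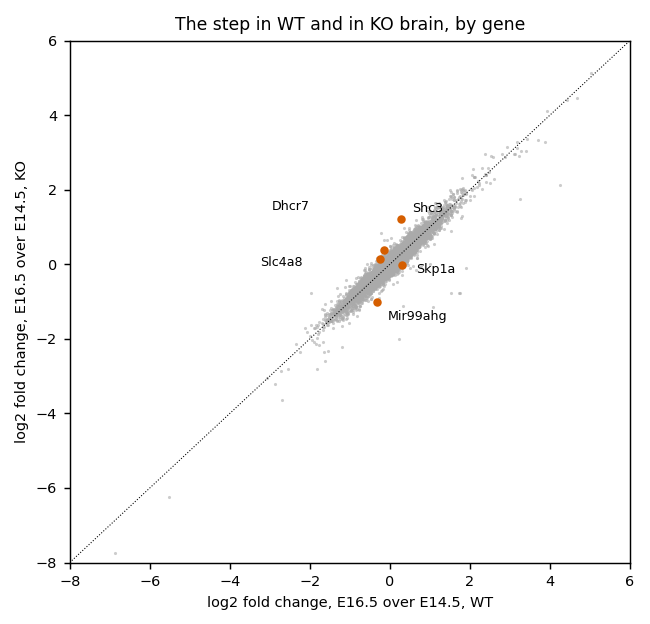
Log2 fold change from E14.5 to E16.5 in KO brain (vertical) against that in WT brain (horizontal), a point for each of the 11178 genes with a mean of 10 CPM or more in 1 WT group, with the line of equal change dotted. The 5 genes called in the test of the difference are in orange, and 6674 genes were called in the same direction in both genotypes.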

How the data were processed

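The authors deposited 1 table of read counts per gene for each stage, whole numbers that were not normalized. The submitters' processing notes name mm10, HISAT2, SAMtools, featureCounts and DESeq2 without versions, and the strand setting of the counting is not given in the sources used here. Groups were taken from the labels, and library totals are those of the report. From the counts, edgeR 4.0.16 in R 4.3.3 (limma 3.58.1) kept genes by filterByExpr (minimum count 10, minimum total 15), scaled them by TMM and fitted a robust quasi-likelihood model to the 8 WT libraries. Benjamini-Hochberg adjustment ran over all 17674 genes, and the call was an adjusted p under 0.05. The KO step was fitted in the same way, and the difference of the steps in 1 fit over 16 libraries. All members of the lists and the rule were chosen with earlier results of these data known.

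The text names the 12 largest rises and falls of genes with 10 CPM whose groups do not overlap, defining list members, the 3 smallest p per list and direction, 5 genes of the test between genotypes and the 5 highest genes past 2-fold. Outside this rule, Cdc20, Cenpf, Crym, Dll3, Dlx2, Gabra5, Gli3, Hopx, Igf2bp3, Mcm6, Notch1, Rps27a, Ube2c, Uhrf1, the gene symbols of the sex check and the region genes were chosen after their values were seen. Some genes of the rule are not reported here. Symbols were placed with GENCODE M21 (GRCm38, the same assembly as mm10): 53180 of 55291 matched 1 gene, 112 several and 1999 none. In simulated counts with 100 genes changed at each fold, the WT test recovered 79 of 100 at 1.5-fold and 100 of 100 at 2-fold over 15932 genes, with 5.29% false calls. The test between genotypes recovered 44 and 92 of 100 over 15863 genes, with 2.16% false calls. The simulation changed few genes, gave all genes the same spread between libraries and held no library that stood apart. These rates therefore need not hold for the real counts. Replicate pairs of a group differed by more than sampling noise (chi-square per degree of freedom 2.899 to 43.08 over 24 pairs), and none was treated as a duplicate. Alternatives were RLE scaling, library totals, no filter, a 10 CPM filter, DESeq2 1.42.0, a replicate block, fits over 16 or 32 libraries, a sex covariate, a test against 1.5-fold, no mitochondrial or ribosomal RNA genes, and each library left out. Added after the data were seen were protein-coding genes alone, leaving out the genes of the order over the 4 stages, and leaving out E16.5 replicates 1 and 2.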

Additional observations from a re-analysis of the deposited data

Results flagged for a closer look

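Of 126 checks of a gene or share in 1 group of 4 libraries, 8 had a library set apart from the other 3 by more than Dixon's 95% critical value, where chance flags about 1 in 20 groups. At E14.5 these were Eomes in replicate 4 (127.2 CPM against 133.1 to 134 CPM in the others), Dcx in replicate 2 (889.7 against 792.6 to 807.7 CPM), Gabrb2 in replicate 2 (5.305 against 3.295 to 3.381 CPM) and Rn7sk in replicate 1 (1.868 against 1.089 to 1.143 CPM). At E16.5 they were Ptgds in replicate 4 (187.8 against 129.7 to 133.6 CPM), Rps27a in replicate 3 (189.9 against 244.7 to 247.9 CPM) and Rn7sk in replicate 1 (73.66 against 5.375 to 13.68 CPM). The share of counts on the ribosomal RNA gene was 3.75% in E16.5 replicate 1 and 0.356 to 0.626% in the others.

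The step differed between WT and KO, by the test of the difference in edgeR, in 5 genes. The WT minus KO log2 fold changes were -0.53 for Dhcr7, 0.34 for Skp1a, -0.91 for Shc3, -0.40 for Slc4a8 and 0.71 for Mir99ahg.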

How the results depend on the processing

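The number of genes called in the WT step stayed within 1.5 times of 10162 under every alternative but the test against a 1.5-fold change, which called 2293. With 1 library left out it ran from 9421 to 10189, and in the KO step from 10204 to 10730. The number called in the difference between WT and KO, 5, was 90 with no filter on low counts, 213 with DESeq2 and 9 with the replicate block, and with 1 library left out ran from 0 to 35. The calls of Dhcr7, Shc3, Mir99ahg, Slc4a8 and Skp1a in that test thus depend on the libraries; the cause was not tested.

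The labels name no pairing of libraries by replicate number. Same-numbered WT libraries deviated together with correlations of 0.197, 0.372, 0.299 and -0.181. Numbers 1, 2 and 3 correlated best with their own number, and number 4 with number 3. Whether the numbers mark something shared between the stages cannot be told from these values. With the replicate block 10124 genes were called in the WT step and 10836 in the KO step, all 49 list medians stayed within their spread, 8 of 356 named genes lost the call (among them Hbb-bt, Hba-a2, Ttr and Skor1) and 3 gained it (Gad1, Lin28b and Col1a1). Of the list medians, 9 moved by more than their spread without E16.5 replicate 1 and 23 of 49 without E16.5 replicates 1 and 2. Of the named genes, 38 lost the call in the fit over 16 libraries, 39 in that over 32 libraries and 151 in the test against a 1.5-fold change.

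The direction turned in the values below, beyond the spread of the list or past the threshold, and the cause was not tested. The median of the brain endothelium list was -0.017 without WT E16.5 replicate 3 (-0.017 to 0.083 over the libraries left out in turn) and -0.13 with a mean of 10 CPM or more. That of the cartilage and bone list was 0.072 without WT E14.5 replicate 2 and 0.031 without WT E16.5 replicate 3 (-0.43 to 0.072). Medians that lie within their spread of 0 also changed sign, under several settings. Without E16.5 replicate 1 these were those of axon guidance (0.0085 to -0.097), meninges and fibroblasts (-0.022 to 0.062), immediate early genes (0.075 to -0.092) and thalamus and hypothalamus (-0.0040 to 0.117, over 14 genes in place of 13). Slc17a6 was at 0.14 (adjusted p = 0.0453, edgeR) without E16.5 replicate 1 (-0.11 to 0.14). Slc6a4, the serotonin transporter, was under 10 CPM in the mean of both stages. Its log2 fold change was -1.001 (adjusted p = 0.00233) without E16.5 replicate 2 (-1.001 to 0.53) and -0.73 (adjusted p = 0.0107) without replicates 1 and 2. Of the calls, 51% were higher with TMM, 50.8% with RLE and 54.4% with library totals, and the median of all genes moved from 0.0080 to 0.038 at most. Depth limits the genes under 10 CPM, and counting intervals cover counting error only.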
